A study of Mus musculus with 2 samples.

Results

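The genes described here encode the class I and class II molecules of the mouse major histocompatibility complex (MHC) and the proteins that make, load and regulate them. They are the genes whose platform annotation symbol starts with H2-, together with B2m, Tap1, Tap2, Tapbp, Ciita, Cd1d1, Psmb8, Psmb9, Psmb10, Erap1 and Calr. These symbols matched 46 of the 19505 named genes, each through 1 probe set, and 35 of the 46 start with H2-. Of 13 genes chosen by name 11 were found, and Cd74 and Nlrc5 were not analysed here. The rule that picks the 46 works on symbols and uses no measured value. They comprise 25 class I heavy chain genes or pseudogenes, 9 genes of the class I pathway, 10 class II genes, Cd1d1, and H2-Ke6. H2-Ke6 bears an H2- symbol but encodes a hydroxysteroid dehydrogenase, so it was kept out of both classes.

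The arrays measured RNA of innate lymphoid cell (ILC) progenitors from mice with a Yeats4 deletion and from wild-type littermates, with 1 array for each genotype. ILC progenitors give rise to the helper innate lymphoid cells, and Yeats4 encodes a chromatin protein that reads acetylated histones. The sort took lineage-negative cells with surface CD127 and α4β7 integrin whose c-Kit and Sca-1 were intermediate. The labels give neither the deleted part of Yeats4, nor how the deletion was driven, nor the age, sex or number of the mice behind an array. Yeats4 itself read 5.90 on the array labelled knockout and 5.96 on the wild-type array (log2), which differ by -0.06, with a local spread of 0.34. Where its probes lie relative to the deletion is not known here, so the reading does not check the label, and the tested array is called the knockout-labelled array. Of 11 genes listed for the progenitors and their sort gate, 9 were in the annotation, among them Il7r, Kit, Itga4, Itgb7 and Id2, and none of the 9 was under the negative control level on both arrays. Their values differed between the arrays, with 6 of 9 lower and a median of -0.35. Thy1 (-1.66) was at least 2-fold lower and Id2 (1.23) at least 2-fold higher, as were 0.781% and 1.56% of all genes past the filter. Il7r, which encodes CD127, was at -0.70.

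Class I molecules are built of a polymorphic heavy chain, a light chain encoded by B2m, and a short peptide, and nearly all nucleated cells carry them. The proteasome cuts the peptides, the TAP transporter moves them into the endoplasmic reticulum, and tapasin and calreticulin hold the empty molecule until a peptide fits. Class II molecules pair an α with a β chain, take their peptides from endosomes with the help of H2-DM, and are carried mainly by B cells, dendritic cells and macrophages under the control of Ciita.

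All values are log2 expression values and all differences are the knockout-labelled array minus the wild-type array. A negative difference therefore means a lower reading on the knockout-labelled array. A single array for each genotype leaves no replicate error, and nothing was tested. Each difference is set beside a local median and a local spread, taken over 500 genes of like mean level. The spread is the median absolute deviation, scaled to an SD, and describes the scatter between these arrays only. A gene passed the level filter when its mean reached the median over the probe sets (2.88), which kept 10881 genes in all and 35 of the 46. The median difference of the 10881 was 0.08, and it was 0.17 for those with mean levels between 6 and 7. The 95th percentile of the negative control probe sets was 4.73 on the knockout-labelled array and 4.80 on the wild-type array, and a gene under 4.80 on both is called near background.

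No gene of the 46 differed 2-fold between the arrays. Among all genes past the filter 1.56% were higher by 2-fold or more and 0.781% lower by as much, so a set of 35 would hold few such genes, and their absence here is not a result about the set. At 1.5-fold, Tap2 and the class Ib gene H2-T3 were lower and none was higher, against 5.16% and 9.16% of all genes. Small negative differences were more frequent. Of the 35 genes past the filter 25 were below 0, compared with 41.0% of all genes past it. Over all 46 the count was 33, which includes genes under the filter and has no share over unfiltered genes beside it. The median of the 35 was -0.12, against 0.08 for all genes. At mean levels between 6 and 7, where 10 of them lie, their median was -0.13, against 0.17 for the 1593 genes of that level. The heavy chain and class II genes sat on the low side of the cloud of all genes, and the class I pathway was spread to both sides.

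**Figure D1:**
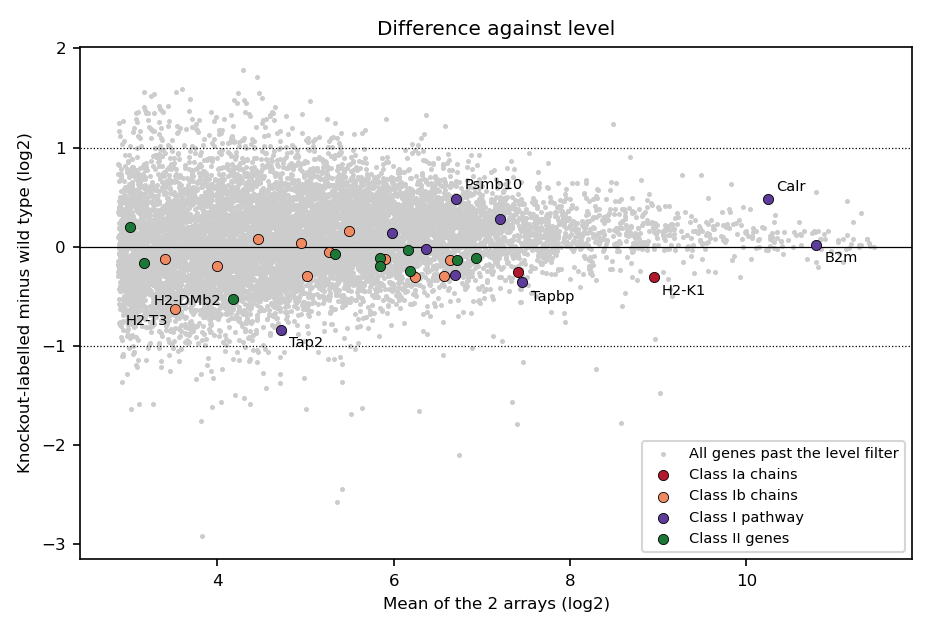
Difference between the knockout-labelled and the wild-type array (log2, y axis) against the mean of both arrays (log2, x axis), with all 10881 genes past the level filter in grey and class Ia, class Ib, class I pathway and class II genes in colour. Dotted lines mark 2-fold, and all coloured points lie between them, from Tap2 at -0.84 to Psmb10 at 0.48.

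Both class Ia heavy chain genes, whose products present peptides of the cell's own proteins to CD8 T cells, read lower on the knockout-labelled array. H2-K1 (Entrez gene 14972) read 8.80 on the knockout-labelled array and 9.10 on the wild-type array, a difference of -0.30, or 1.23-fold lower. The genes nearest to it in level had a median of 0.14 with a spread of 0.18, so H2-K1 lay 2.50 spreads below them, the farthest of the 35 on the low side. H2-D1 (Entrez gene 14964) read 7.28 on the knockout-labelled array and 7.54 on the wild-type array, a difference of -0.26 that lay 1.69 spreads below its neighbours in level. Both differences were small, and neither has a replicate behind it.

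The class Ib genes are less polymorphic relatives with narrower roles, and 12 of 23 passed the filter. H2-T23 encodes Qa-1, which shows leader peptides of other class I chains to NK cell receptors. It read 6.09 on the knockout-labelled array and 6.39 on the wild-type array, a difference of -0.30. The neighbours H2-T22 and H2-T10 encode ligands of some γδ T cells. H2-T22 read 4.87 on the knockout-labelled array and 5.16 on the wild-type array, a difference of -0.29, and H2-T10 read 6.57 on the knockout-labelled array and 6.71 on the wild-type array, a difference of -0.13. In the Q group, H2-Q5 read 6.43 on the knockout-labelled array and 6.72 on the wild-type array, a difference of -0.29. H2-Q4 read 5.83 and H2-Q2 5.25 on the knockout-labelled array, against 5.96 and 5.30 on the wild-type array. Their differences were -0.12 and -0.05, so the Q genes above background leaned the same way by unequal amounts.

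A few class Ib genes did not lean that way. H2-M3, which presents formylated bacterial peptides, read 4.97 on the knockout-labelled array and 4.93 on the wild-type array, a difference of 0.03. The gene annotated as H2-T-ps read 5.58 on the knockout-labelled array and 5.42 on the wild-type array, a difference of 0.16, the highest of the class I chains past the filter. H2-T24, near background, was at 0.08. Near background as well, H2-T3, which encodes the thymus leukaemia antigen, read 3.21 on the knockout-labelled array and 3.84 on the wild-type array. Its difference of -0.63 was the lowest of the chains past the filter but lay only 1.25 spreads below its neighbours in level. H2-Q1 (-0.20) and H2-Q10 (-0.12) were near background too.

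Of the 14 class I chains past the filter, 11 were below 0, against 41.0% of all genes past it. These chains had a median of -0.17 and a range of -0.63 to 0.16. The 10 that were above the negative control level on both arrays had a median of -0.20. The other 11 chains, all class Ib, were under the filter and near background, with differences between -0.83 (H2-M10.4) and 0.48 (H2-M10.6). Over all 25 chains 19 were below 0, a count with no share over unfiltered genes beside it. The H2-M10 genes are known from vomeronasal neurons, and no H2-M10 gene passed the filter. Class I genes resemble each other in sequence and vary between mouse strains, so a probe set may read more than its own gene, and the part of such shared or allelic signal was not tested. The plot of values by array shows the pattern gene by gene.

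**Figure D2:**
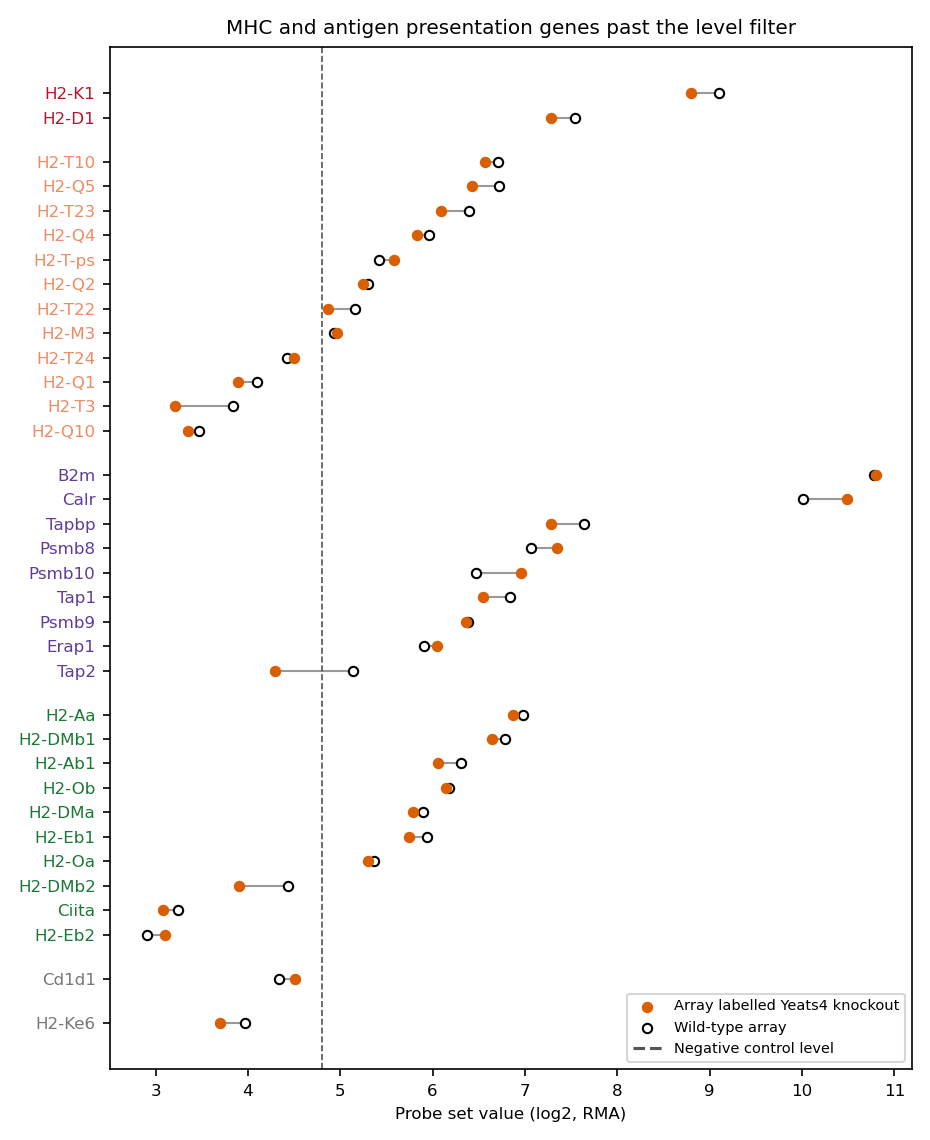
Log2 value (x axis) of each of the 35 genes past the level filter on the knockout-labelled array (filled) and the wild-type array (open), grouped from top to bottom as class Ia, class Ib, class I pathway, class II, Cd1d1 and H2-Ke6. The dashed line is the negative control level (4.80), H2-K1 and H2-D1 lie to its right with the filled point to the left of the open point, and B2m (10.80 on the knockout-labelled array and 10.78 on the wild-type array) shows almost no gap.

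The promoters of several of these genes hold a short arrangement of letters, shown here as the regulatory sequence known for this family. Promoter windows of 250 bases before to 50 after the annotated start came from RefSeq (GRCm38.p6) and were found for 37 of the 46 genes, 20 of them class I chains. The motif CCAAT, the core of the Y box bound by NF-Y, was searched on both strands, where it can read ATTGG. It occurred in 17 of the 20 class I windows, in 5 of 8 class I pathway windows and in 7 of 8 class II windows, against 37.4% of all 32851 windows. In H2-K1, H2-D1, H2-Q4 and H2-T22, ATTGG was followed by CCAAT with 24, 23, 24 and 25 bases between their first bases. The class II gene H2-Eb1 holds the same pair, 24 bases apart, and is printed with its class. That pair, looked for after the matches were seen, occurred in 0.216% of all windows. The excerpts below run 5′ to 3′ on the gene's strand, with these motifs in capitals.
H2-K1 (chr17:34000319-34000408, minus strand): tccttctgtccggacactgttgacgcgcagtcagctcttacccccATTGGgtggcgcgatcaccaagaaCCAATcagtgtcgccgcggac
H2-D1 (chr17:35262973-35263062, plus strand): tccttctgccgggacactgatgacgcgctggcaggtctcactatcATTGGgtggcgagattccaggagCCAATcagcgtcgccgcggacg
H2-Q4 (chr17:35379493-35379582, plus strand): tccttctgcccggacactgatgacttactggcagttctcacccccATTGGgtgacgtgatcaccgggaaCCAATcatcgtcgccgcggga
The matches describe letters in the reference and not binding in these cells. Whether they bear on the differences was not tested.

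The light chain did not move with the heavy chains. B2m (Entrez gene 12010) read 10.80 on the knockout-labelled array and 10.78 on the wild-type array, a difference of 0.01, and was 0.67 spreads below its neighbours in level. Its sign turned negative under each rescaling tried, with -0.09 as the lowest value, so no direction is given for it. H2-K1 and B2m are thus read side by side as a small negative difference and almost none.

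The peptide transporter and its bridge to the heavy chain read lower. Tap1 and Tap2 encode the subunits of the TAP transporter. Tap1 read 6.55 on the knockout-labelled array and 6.84 on the wild-type array, a difference of -0.29. Tap2 read 4.29 on the knockout-labelled array, under the negative control level, and 5.14 on the wild-type array. The measured difference of -0.84 was the largest in size of the 35, 2.02 spreads below its neighbours in level, and against the negative control level it amounts to at least 1.26-fold lower. Tapbp, which encodes tapasin, read 7.28 on the knockout-labelled array and 7.64 on the wild-type array, a difference of -0.36 that lay 2.06 spreads below its neighbours. These genes differed in the direction of the heavy chains.

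Calr went the other way. Calreticulin is a chaperone of the endoplasmic reticulum that serves many glycoproteins besides class I. Calr read 10.48 on the knockout-labelled array and 10.01 on the wild-type array, a difference of 0.48, or 1.39-fold higher, and 2.11 spreads above its neighbours in level. In all, H2-K1, Tapbp and Tap2 lay at least 2 local spreads below and Calr at least 2 above, where 2.35% and 3.12% of all genes past the filter lay.

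The genes that supply peptides were mixed. Psmb8, Psmb9 and Psmb10 encode the catalytic subunits of the immunoproteasome, and Erap1 encodes the aminopeptidase that trims peptides in the endoplasmic reticulum. Psmb10 read 6.95 on the knockout-labelled array and 6.47 on the wild-type array, a difference of 0.48. Psmb8 read 7.34 on the knockout-labelled array and 7.07 on the wild-type array, a difference of 0.28. For Psmb9 the readings were 6.36 on the knockout-labelled array and 6.38 on the wild-type array, a difference of -0.02. As deposited, Psmb8 and Psmb10 thus read higher and Psmb9 showed almost no difference, although all belong to one particle. Against neighbours in level, Psmb10 lay 1.09 spreads and Psmb8 0.35 spreads above, and Psmb9 0.68 spreads below. Erap1 read 6.05 on the knockout-labelled array and 5.91 on the wild-type array, a difference of 0.14 that lay 0.06 spreads below its neighbours in level. The 9 class I pathway genes had a median of 0.01, with 4 below 0. That median changed sign with rescaling, and it describes a set that was spread to both sides.

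Some of these genes carry an interferon-stimulated response element in the promoter window, a motif through which interferon raises class I presentation. Its core (GAAA, any 2 bases, GAAA) occurred on either strand in the windows of B2m, Erap1, H2-T23 and H2-T22, and in 3.44% of all windows. These are printed with that core, CCAAT and their reverse complements in capitals.
B2m (chr2:122147503-122147592, plus strand): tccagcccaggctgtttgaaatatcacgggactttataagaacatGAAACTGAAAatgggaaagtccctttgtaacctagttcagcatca
Erap1 (chr13:74639804-74639893, plus strand): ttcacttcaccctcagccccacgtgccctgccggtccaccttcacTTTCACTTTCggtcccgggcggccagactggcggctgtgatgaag
H2-T23 (chr17:36032781-36032870, minus strand): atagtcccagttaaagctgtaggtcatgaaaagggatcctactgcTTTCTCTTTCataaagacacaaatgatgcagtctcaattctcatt
H2-T22 (chr17:36042889-36042978, minus strand): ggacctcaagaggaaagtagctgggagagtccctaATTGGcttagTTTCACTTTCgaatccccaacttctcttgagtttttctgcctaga
The differences were 0.01 for B2m, 0.14 for Erap1, -0.30 for H2-T23 and -0.29 for H2-T22, and the signs of B2m and Erap1 depend on the scaling.

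Class II genes differed little, and nearly all in the same direction. The chain genes H2-Aa and H2-Ab1 encode the α and β chain of the A molecule, and H2-Eb1 a β chain of the E molecule. H2-Aa read 6.87 on the knockout-labelled array and 6.98 on the wild-type array, a difference of -0.11. H2-Ab1 read 6.06 on the knockout-labelled array and 6.31 on the wild-type array, a difference of -0.25. H2-Eb1 read 5.75 on the knockout-labelled array and 5.94 on the wild-type array, a difference of -0.19. All of them were above the negative control level on both arrays, and each lay between 0.99 and 1.33 spreads below its neighbours in level. H2-Eb2, near background, read 3.11 on the knockout-labelled array and 2.90 on the wild-type array, and its difference of 0.20 was the only one above 0 in the class.

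The peptide exchange genes followed the chains. H2-DM removes the placeholder peptide from class II, and H2-O restrains H2-DM. H2-DMa read 5.79 on the knockout-labelled array and 5.90 on the wild-type array, a difference of -0.11. H2-DMb1 read 6.65 on the knockout-labelled array and 6.78 on the wild-type array, a difference of -0.13. The other β chain gene, H2-DMb2, read 3.91 on the knockout-labelled array and 4.44 on the wild-type array. Its difference of -0.53 was the lowest of the class, but it was near background on both arrays. H2-Oa read 5.30 on the knockout-labelled array and 5.37 on the wild-type array, a difference of -0.07. H2-Ob read 6.15 on the knockout-labelled array and 6.18 on the wild-type array, a difference of -0.03. Ciita, the class II transactivator, was near background at 3.08 on the knockout-labelled array and 3.24 on the wild-type array, with a difference of -0.16. Of the class II genes, 7 thus read above the control level on both arrays, while H2-Eb2, H2-DMb2 and Ciita were under it on both.

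Of the 10 class II genes 9 were below 0, against 41.0% of all genes past the filter. The class had a median of -0.12 and a range of -0.53 to 0.20. The 7 above the negative control level on both arrays had a median of -0.11. Class I chains (-0.17) and class II genes (-0.12) therefore had similar medians, against 0.08 for all genes, and the difference between the classes was not tested. Outside both classes, Cd1d1, which presents lipids to NKT cells, was near background with a difference of 0.18, and H2-Ke6, also near background, was at -0.27.

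Class II promoters carry an X box, bound by the RFX complex, and a Y box at a fixed distance, and Ciita acts through proteins on both. The X box core AGCAAC occurred on either strand in 4 of the 8 class II windows, in 3 of 20 class I windows and in 14.8% of all windows. In H2-Oa, H2-Ob, H2-Eb1 and H2-Eb2 it was followed by ATTGG with 34, 31, 33 and 33 bases between their first bases. This spaced pair, searched after the matches were seen, was held by 0.0578% of all windows, 19 of 32851. The excerpts show the X box core and the Y box core on either strand in capitals, with H2-Aa, which holds ATTGG but not AGCAAC, for comparison.
H2-Oa (chr17:34092291-34092380, plus strand): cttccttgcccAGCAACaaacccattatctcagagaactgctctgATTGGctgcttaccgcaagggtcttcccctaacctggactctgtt
H2-Ob (chr17:34238803-34238892, plus strand): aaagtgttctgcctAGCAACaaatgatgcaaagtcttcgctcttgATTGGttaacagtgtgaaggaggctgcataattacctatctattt
H2-Eb1 (chr17:34305763-34305852, plus strand): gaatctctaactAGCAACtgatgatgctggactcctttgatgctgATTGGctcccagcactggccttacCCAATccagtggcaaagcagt
H2-Eb2 (chr17:34325530-34325619, plus strand): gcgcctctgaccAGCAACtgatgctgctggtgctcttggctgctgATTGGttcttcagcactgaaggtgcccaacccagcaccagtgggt
H2-Aa (chr17:34287827-34287916, minus strand): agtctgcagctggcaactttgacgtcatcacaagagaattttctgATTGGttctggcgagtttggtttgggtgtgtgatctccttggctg
The differences were -0.07 for H2-Oa, -0.03 for H2-Ob, -0.19 for H2-Eb1, 0.20 for H2-Eb2 and -0.11 for H2-Aa.

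The genes for factors that bind these boxes were mostly above 0. Of 7 promoter factors past the filter 6 were above 0, with a median of 0.37, where 58.2% of all genes past the filter were above 0. The highest were the subunits of NF-Y. Nfyb read 6.21 on the knockout-labelled array and 5.54 on the wild-type array, a difference of 0.66, or 1.58-fold higher. Nfya (0.45) and Nfyc (0.42) were higher as well, all above the negative control level. Interferon-γ signalling, the main inducer of both classes, had a median of 0.22 over 6 genes, of which 5 were above 0. Irf2 was at 0.40, the receptor chain gene Ifngr1 at 0.29 and Irf1, an activator of class I genes, at -0.27. Interferon-induced genes had a median of 0.19, with 9 of 12 above 0, a count not far from the share of all genes. Their largest differences past the filter, Oas1a (0.64), Igtp (0.64) and Irf7 (0.62), were all near background. Iigp1 was at 1.07, near background and under the filter.

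The other endoplasmic reticulum genes of the loading pathway differed as Calr did. All 9 were above 0, with a median of 0.36 and a range of 0.10 to 0.52, and none differed 2-fold. Canx encodes calnexin, which folds new heavy chains. It read 7.24 on the knockout-labelled array and 6.73 on the wild-type array, a difference of 0.52. Hspa5, the lumenal HSP70 chaperone, was at 0.49, and Sec61b, a subunit of the translocon, at 0.47. Of 8 other genes of peptide supply 7 were above 0, with a median of 0.24. They were led by the proteasome activator subunit gene Psme3 (0.49), with the related Psme2 at 0.30 and the aminopeptidase gene Npepps, near background, at 0.28. Of all genes past the filter 58.2% were above 0. Set against the local medians, the median was 0.23 for the loading list and 0.08 for the supply list, with 1 of 9 and 2 of 8 genes below. The supply list thus lay close to genes of like level. For the class I chains the same median was -0.31, with 12 of 14 below.

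Endosomal processing genes, which prepare class II peptides, lay close to genes of like level. Of 7 past the filter 3 were below 0, against 41.0% of all genes past it. Their median was 0.14, and 0.0008 when set against the local medians. The protease gene Lgmn was at 0.47. The ubiquitin ligase genes Marchf8 (0.35) and Marchf1 (-0.33), whose products remove class II from the surface, were near background. Among class I-like genes outside the H2 family 3 of 9 passed the filter, and all were near background. These were Fcgrt, the IgG receptor of endosomes, at 0.63, Hfe, the iron regulator, at 0.33 and Ulbp1, a ligand of NKG2D, at 0.04. Of the co-stimulatory ligands 3 of 5 past the filter were below 0, against the same 41.0%, with a median of -0.28. Cd274, which encodes PD-L1, read 4.61 on the knockout-labelled array, under the negative control level, and 5.29 on the wild-type array, at least 1.40-fold lower. Cd40 (0.42) and Icam1 (-0.30) were near background, as was Cd86, at 1.48 and under the filter.

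**Figure D3:**
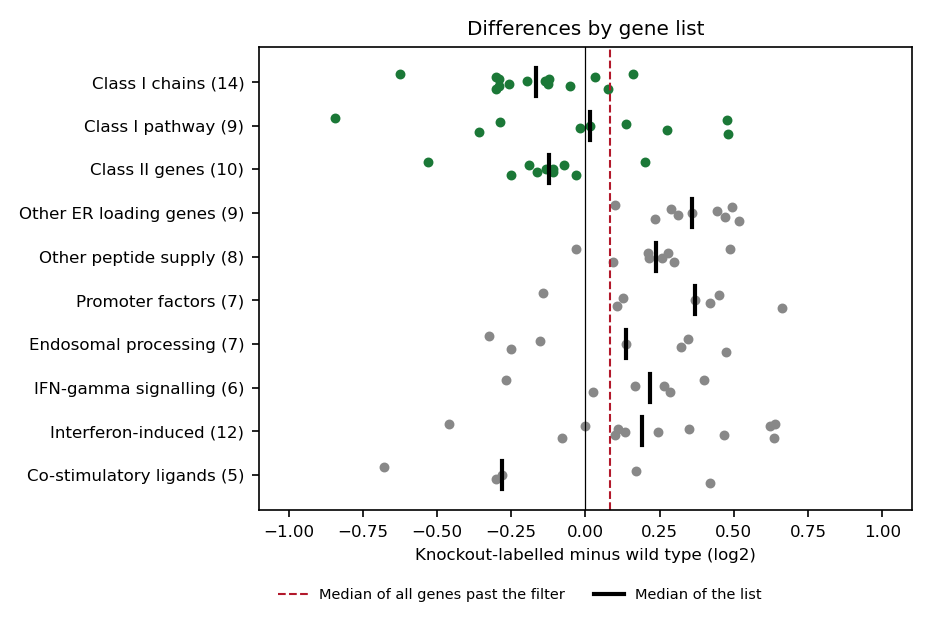
Difference between the knockout-labelled and the wild-type array (log2, x axis) for each gene past the level filter, by list, with the number of genes in brackets, the list's median as a black bar and the median of all genes (0.08) as a dashed line. The medians of class I chains (-0.17) and class II genes (-0.12) lie left of 0, and those of other endoplasmic reticulum loading genes (0.36) and promoter factors (0.37) to the right.

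By position, 40 of the 46 genes lie on chromosome 17. The outermost of these 40 set the ends of the stretch from Tapbp to H2-M3, so all 40 lie in it by definition. The gene order is that of the reference table (GRCm38.p6), and the split by position was made after the values were seen. The class I pathway values are given on each side of it. Of its genes inside the stretch, Tap1, Tap2, Tapbp and Psmb9 were below 0 and Psmb8 was not, with a median of -0.29 over 5 genes. Of its genes elsewhere, B2m, Calr, Psmb10 and Erap1, none was below 0 as deposited, and the median of the 4 was 0.31. This count depends on the scaling, since B2m turned negative under each rescaling and Erap1 under loess, and 2 of the 4 lay below their local median. The genes of the stretch that are not among the 46 had a median of -0.03 over the 75 past the filter. Of these 39 were below 0, or 52.0%, against 41.0% of all genes past the filter. Outside the stretch, the 462 genes of chromosome 17 past the filter had a median of 0.08, with 42.0% below 0. The other genes of the stretch were scattered widely, with a single one at least 2-fold lower, Gabbr1 (-1.13), next to H2-M3 in the order of genes past the filter. Among all genes past the filter 0.781% were lower by as much.

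**Figure D4:**
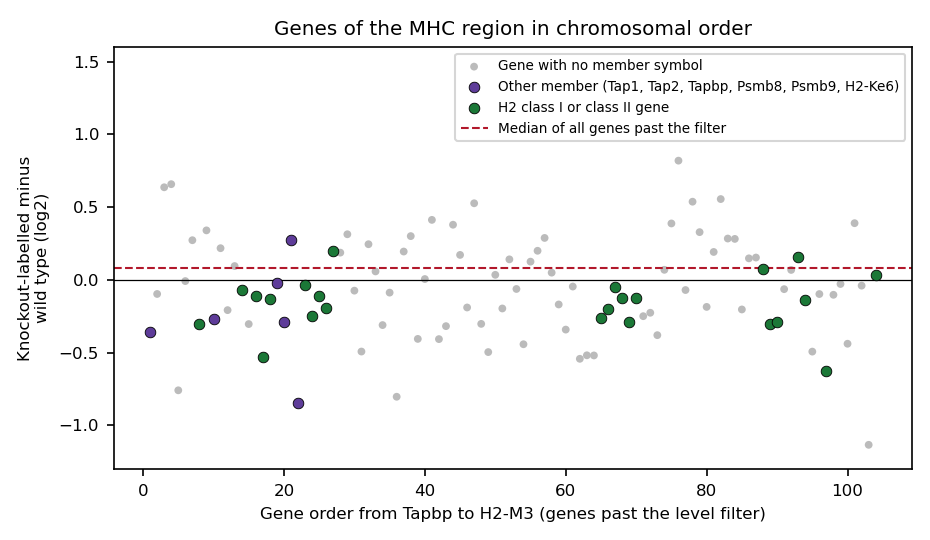
Difference between the knockout-labelled and the wild-type array (log2, y axis) for the 104 genes past the level filter in chromosomal order from Tapbp to H2-M3 (x axis, rank in that order). Class I and class II H2 genes lie mostly below both 0 and the median of all genes (dashed, 0.08), and genes with no member symbol scatter around 0, with a median of -0.03.

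The lineage-negative gate is meant to remove most mature blood cells. Some markers of several blood cell lineages nevertheless read above the control level on both arrays and differed between them. In bulk RNA, fewer cells of a type and less RNA per cell cannot be told apart. Of all genes past the filter 41.0% were below 0 and 58.2% above. B cell markers, which include the pre-B receptor gene Igll1 (-1.16), were lower in 10 of 10 genes with a median of -0.99. The summed linear level of the B cell markers was 668 on the knockout-labelled array and 1262 on the wild-type array. How much class II the cells behind them carry was not measured. Macrophage markers were higher in 11 of 11 genes with a median of 0.84, and summed to 704 on the knockout-labelled array and 437 on the wild-type array. Dendritic cell markers were lower in 6 of 9 genes with a median of -0.19, and summed to 347 on the knockout-labelled array and 373 on the wild-type array. T cell markers were lower in 7 of 9 genes with a median of -1.76, and summed to 189 on the knockout-labelled array and 626 on the wild-type array. Eosinophil markers were lower in 5 of 6 genes with a median of -1.52, and summed to 661 on the knockout-labelled array and 1957 on the wild-type array. Neutrophil markers were lower in 5 of 9 genes with a median of -0.02. Their sums were the largest, 12553.8 on the knockout-labelled array and 11159.5 on the wild-type array. No marker was listed at 0, and 6 of the 9 dendritic cell markers, among them Xcr1, Clec9a and Itgax, were near background on both arrays. So were 4 of the 11 macrophage markers (Cd5l, Adgre1, Mertk and Spic) and 2 of the 10 B cell markers (Ms4a1 and Cd22). Of the T cell and the eosinophil markers, 2 each were near background. The part of these cells in the class I and class II differences was not tested.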

How the data were processed

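RNA was measured on 1 array per genotype. The deposited table holds log2 values per probe set, and the tools the authors used were RMA and Affymetrix Power Tools, per the submitters' processing notes. RMA as a method corrects background, brings the arrays to one distribution and summarises probes, so a shift of all RNA in a cell would be hidden. The deposited probe set values still did not match exactly, with a median of 2.87 on the knockout-labelled array and 2.91 on the wild-type array. The sources used here do not give tool versions or a genome build. Probe set names match an annotation of a platform other than the Mouse Gene 2.0 array of the design text, and gene names come from it.

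From the 29129 probe sets, 19505 genes were formed by the probe set of highest mean. Values were used as deposited. The local spread was checked only on data simulated with that same spread, which cannot show how replicate arrays would scatter. All genes of the rule were reported, except that class Ib chains under the filter are given by count and range. In other pathway lists the text names the 3 largest differences past the filter and any gene differing 2-fold. Cell marker lists are given by counts, medians and, except for the progenitor list, sums. The rule for the genes reads symbols only, but it, the lists and the motifs were chosen with earlier results of these data known. No test is possible with 1 array per group. Nothing says how many mice contributed to an array, and the number of arrays limits the precision. Computations used Python 3.11.15, numpy 2.4.6, pandas 2.3.3 and statsmodels 0.14.6. The alternatives are given in the closing section.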

Additional observations from a re-analysis of the deposited data

How the results depend on the processing

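Class I chains, class II genes and the 35 genes together kept a negative median under every level filter and scaling tried. The medians moved by over 0.1 with the loess correction on level (span 0.3), to -0.28 for class I chains, -0.26 for class II genes and -0.25 for the 35, and with quantile normalization of the table, to -0.27, -0.25 and -0.24. With low values lifted to the negative control level the medians were -0.09, -0.09 and -0.03, the smallest in size, and Tap2 was at -0.34, while H2-T3 and H2-DMb2 were at 0.0000. The class I pathway median turned to -0.070 with centring on the median, -0.089 with loess and -0.040 with quantile normalization, and the signs of B2m, H2-M3, Erap1 and H2-T24 turned under at least 1 of these. Without a level filter 19 of 25 class I chains were below 0, with no share over unfiltered genes beside it, and the median of all genes was 0.01. At 1.5-fold, 1 class I chain, 1 class I pathway gene and 2 of the 35 were lower. Among all genes, 170 were 2-fold higher and 85 lower. The excess of higher calls was nearly gone with centring on the median, at 123 and 118. It remained with loess, at 148 and 90, and with quantile normalization, at 148 and 92. The counts were 227 and 137 without a level filter. They were 35 and 25 with the filter at the 75th percentile (4.84), 38 and 25 with a filter at the negative controls' means (4.75), 19 and 23 with low values lifted, 76 and 45 at 3 local spreads, and 997 and 561 at 1.5-fold. They were 15 and 16 for genes at or above the negative control level on both arrays, a setting added after seeing the data. Averaging probe sets could change none of the 46, which have 1 each. No paired analysis was possible because each genotype has 1 array.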
